A study of Cucumis sativus with 12 samples.

Results

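Purple acid phosphatases are enzymes that release inorganic phosphate from organic phosphate esters at acid pH. Their active site holds a pair of metal ions, one of them iron bound to a tyrosine, which gives the proteins their colour. In plants they are found in vacuoles, cell walls and secretions, and in Arabidopsis several of them are made in larger amounts when phosphate is short, under the control of the transcription factor PHR1. Phosphate in leaves is also recycled through these enzymes when cell contents are broken down.

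The 4 genes described here are rows of a deposited table of 24317 cucumber genes and were chosen by their identifiers. Their descriptions read purple acid phosphatase 2 (CsaV3_2G029150), purple acid phosphatase 15 (CsaV3_2G011580), bifunctional purple acid phosphatase 26 (CsaV3_1G027910) and probable inactive purple acid phosphatase 28 (CsaV3_1G031940). They are called PAP2, PAP15, PAP26 and PAP28 below. The table holds 14 genes described as purple acid phosphatases, and the other 10 enter only for comparison.

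RNA came from expanded leaves of seedlings of cucumber, Cucumis sativus, treated when the third true leaf was out. Every seedling had received a spray of COS at 50 mg/L (chitosan oligosaccharide, fragments of the polymer chitosan) and then 24 h at 28 °C by day and 18 °C by night. Leaves were taken before any cold (0 h) or after 3, 12 or 24 h at 12 °C by day and 6 °C by night, with 3 libraries for each of the 4 durations and 12 in all. The photoperiod was 12 h of light in every group. Seedlings sprayed with water were not analysed here, so that every group carries the spray and no effect of it can be read. Longer cold also meant a longer time since the spray, so that cold and time cannot be told apart; no hour of the day is given for sampling. Whether the libraries of 1 duration are from different plants is not stated, and p-values measure only the spread between these libraries.

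Libraries held 62701288 to 81550997 units of estimated counts. The lowest counts lie near multiples of 3.74 units, about what 1 fragment is worth. Log2 expression across genes correlated at 0.962 to 0.977 among the 24 h libraries and at 0.981 to 0.985 within the other durations. Genes of leaf mesophyll, encoding chlorophyll a-b binding proteins and the small chain of ribulose bisphosphate carboxylase, were all tested (19 of 19), none was at 0 in every library, and their summed level was 21924 to 23506 FPKM at 0 h, 34596 to 35388 FPKM at 3 h, 45877 to 49966 FPKM at 12 h and 23528 to 26126 FPKM at 24 h. FPKM is the authors' level per transcript length and library size, so that levels can be set side by side between genes. As a check on phloem, 12 genes described as PHLOEM PROTEIN 2-LIKE were taken, by that name only. Of these, 8 were tested and 1 was at 0 in every library. Their summed level was 276 to 493 FPKM at 0 h, 310 to 482 FPKM at 3 h, 357 to 562 FPKM at 12 h and 504 to 1364 FPKM at 24 h, with 6 of the 8 called higher and 2 lower at 24 h over 0 h by the test described below, where 36.2% of all tested genes were called higher and 37.9% lower. The part of these shifts in the results below was not tested.

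The annotation columns set PAP28 apart from PAP2, PAP15 and PAP26, though not from the whole family. PAP2, PAP15 and PAP26 carry the Gene Ontology terms for acid phosphatase activity and metal ion binding, and 10 of the 21 genes with the acid phosphatase term are described as purple acid phosphatases. PAP28 carries hydrolase activity only, and its KEGG column names the spliceosome. Both genes described as probable inactive purple acid phosphatase 29 (CsaV3_6G008450 and CsaV3_6G008460) carry the same entries. PAP26 lies on chromosome 1 at 14825193 to 14837790 and PAP28 on the same chromosome at 18981324 to 18984743, both on the plus strand. PAP2 lies on chromosome 2 at 19060289 to 19065538 and PAP15 on that chromosome at 8886082 to 8894234, both on the minus strand. Coordinates are whole-gene spans of the deposited table, which does not name its build. PAP2 alone of the 4 overlaps another gene, a dehydration-responsive element-binding protein 2D (CsaV3_2G029160, 19060771 to 19061409) on the opposite strand. That gene had at most 8 units, about 2.14 fragments, in any library and none in the 3 h and 24 h libraries.

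PAP2 rose steeply after 3 h in the cold and stayed above its unchilled level at 12 and 24 h. The name PAP2 is also borne by a sweet potato enzyme with iron and manganese in its centre, whereas the Arabidopsis protein of that number is described as probable inactive, like another cucumber gene treated further on. The level of PAP2 was 2.08, 2.05 and 1.78 FPKM in the 0 h libraries, 24.5, 30.8 and 24.5 FPKM at 3 h, 4.09, 4.36 and 4.92 FPKM at 12 h, and 3.44, 5.0 and 5.61 FPKM at 24 h. All 3 h libraries lay above all others, the 12 h and 24 h libraries overlapped, and the 0 h libraries were the lowest. The log2 fold change of 3 h over 0 h was 3.75 (SE 0.18, edgeR quasi-likelihood test with Benjamini-Hochberg adjusted p = 1.40e-08), a 13.5-fold difference. In that comparison 57.7% of 16432 tested genes were called, 29.4% as higher, where called means an adjusted p below 0.05, and PAP2 had the rank of 138 from the largest rise. On the log2 scale the rise was 1.23 at 12 h over 0 h (SE 0.17, edgeR adjusted p = 3.32e-05), where 34.4% of genes were called higher, and 1.31 (SE 0.17, edgeR adjusted p = 1.56e-05) at 24 h over 0 h, where 36.2% were.

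Most of the gain of PAP2 at 3 h was gone at 12 h. The log2 fold change of 12 h over 3 h was -2.52 (SE 0.17, edgeR adjusted p = 1.81e-07), a rank of 186 from the steepest fall among the tested genes, with 55.5% of genes called, 27.6% as lower. That of 24 h over 3 h was -2.45 (SE 0.17, edgeR adjusted p = 9.38e-08), with 67.6% called. On the log2 scale 24 h over 12 h was 0.07 (SE 0.16, edgeR adjusted p = 0.721), so that these neighbours in the order of levels did not differ beyond their spread. The order of PAP2 was thus 3 h, then 24 h and 12 h without a called difference, then 0 h. In every one of the alternatives tried the 3 changes against 0 h and both falls from 3 h kept their direction and their call.

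**Figure D1:**
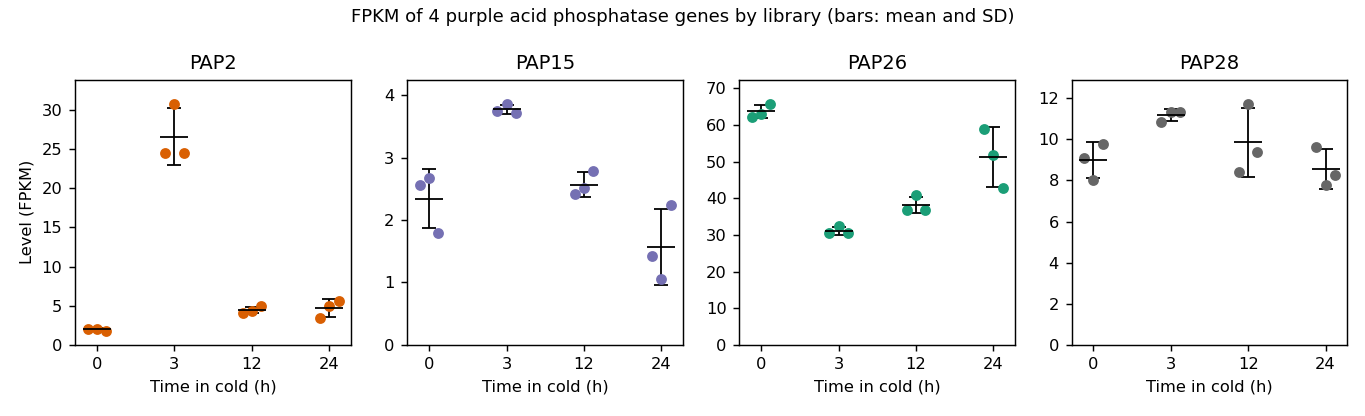
FPKM of each gene (y axis, a scale of its own in each panel, starting at 0) against hours in the cold (x axis, categories); points are libraries and bars the mean and SD of 3. PAP2 reaches 24.5 to 30.8 FPKM at 3 h and no more than 5.61 FPKM elsewhere, whereas PAP26 is lowest at 3 h.

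PAP26 moved the other way: it was the most abundant of the 4 genes in every library, and it fell in the cold and then climbed back in part. In Arabidopsis PAP26 is the main acid phosphatase of the vacuole and is also secreted, and it takes part in recycling phosphate from ageing leaves. The level was 62.2, 63.1 and 65.8 FPKM in the 0 h libraries, 30.5, 32.3 and 30.5 FPKM at 3 h, 36.7, 40.8 and 36.9 FPKM at 12 h, and 58.9, 51.9 and 42.8 FPKM at 24 h. No pair of durations overlapped, and the 24 h libraries spread the most. The log2 fold change of 3 h over 0 h was -1.03 (SE 0.10, edgeR adjusted p = 4.31e-06), where 28.3% of tested genes were called lower. That of 12 h over 0 h was -0.69 (SE 0.10, edgeR adjusted p = 6.70e-05), where 33.0% were.

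The return of PAP26 showed in the comparisons between cold durations. On the log2 scale it rose by 0.35 at 12 h over 3 h (SE 0.10, edgeR adjusted p = 0.0113) and by 0.43 (SE 0.10, edgeR adjusted p = 0.00359) at 24 h over 12 h, with 27.9% and 24.5% of genes called higher (51.9% called either way in the second). At 24 h over 3 h it rose by 0.78 (SE 0.10, edgeR adjusted p = 2.47e-05), where 33.6% were called higher. At 24 h it was still lower than at 0 h, at -0.26 on the log2 scale (SE 0.10, edgeR adjusted p = 0.0340), where 37.9% of genes were called lower. The call at 24 h was lost on leaving out 0 h replicate 2 or 3 (edgeR adjusted p = 0.0684 and 0.0914) and without 24 h replicate 2 or 3 (0.0604 and 0.115, with a log2 fold change of -0.14 without 24 h replicate 3), and the call of 12 h over 3 h ended without 12 h replicate 2 (edgeR adjusted p = 0.0503). Over the course the order was 0 h, 24 h, 12 h and 3 h, with each neighbour called different.

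PAP15 was a weakly expressed gene whose highest level came at 3 h and whose lowest came at 24 h. The Arabidopsis enzyme of this name acts on phytate, the inositol phosphate in which plants store phosphorus. PAP15 stood at 2.56, 2.67 and 1.79 FPKM in the 0 h libraries, 3.74, 3.86 and 3.72 FPKM at 3 h, 2.41, 2.51 and 2.79 FPKM at 12 h, and 1.42, 1.05 and 2.24 FPKM at 24 h. The 3 h libraries were tight and above all others, while the 0 h libraries overlapped those of 12 h, and also those of 24 h, since 24 h replicate 3 lay above 0 h replicate 3. About 48.4 to 161 fragments per library lay behind these values, the fewest of the 4 genes. The log2 fold change of 3 h over 0 h was 0.69 (SE 0.24, edgeR adjusted p = 0.0275). It was lost without 0 h replicate 3 (edgeR adjusted p = 0.108) and without any one of 3 h replicates 1, 2 and 3 (edgeR adjusted p = 0.0579, 0.0609 and 0.0586).

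The log2 fold change of PAP15 at 12 h over 3 h was -0.50 (SE 0.24, edgeR adjusted p = 0.0946) and was not called. PAP15 was lower at 24 h than at 3 h or 12 h. It fell by 1.21 on the log2 scale at 24 h over 3 h (SE 0.24, edgeR adjusted p = 8.35e-04), where 34.1% of genes were called lower, and this call held in every alternative that tested the gene. It fell by 0.70 at 24 h over 12 h (SE 0.24, edgeR adjusted p = 0.0285), where 27.4% were called lower, a call that ended without 12 h replicate 2 or 3 and without 24 h replicate 1 or 2 (edgeR adjusted p = 0.0566, 0.0860, 0.0714 and 0.0993). Against 0 h the log2 difference was 0.19 (SE 0.24, edgeR adjusted p = 0.513) at 12 h and -0.52 (SE 0.24, edgeR adjusted p = 0.0702) at 24 h, and neither was called. The value at 24 h depended on single libraries, since without 24 h replicate 3 it was -0.86 (edgeR adjusted p = 0.00232) and without 0 h replicate 3 it was -0.68 (edgeR adjusted p = 0.0315). No neighbours in the order 3 h, 12 h, 0 h and 24 h passed the test.

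PAP28 varied the least. Its level was 9.09, 8.05 and 9.79 FPKM in the 0 h libraries, 10.8, 11.3 and 11.3 FPKM at 3 h, 8.43, 11.7 and 9.39 FPKM at 12 h, and 9.65, 7.80 and 8.27 FPKM at 24 h. The 3 h libraries lay above those of 0 h and 24 h, and the wide 12 h libraries overlapped every other duration. Its highest library was 1.504 times its lowest, against 17.3 times for PAP2, 3.67 times for PAP15 and 2.16 times for PAP26. The log2 fold changes against 0 h were 0.32 (SE 0.13) at 3 h, 0.19 (SE 0.13) at 12 h and -0.01 (SE 0.13) at 24 h, with edgeR adjusted p of 0.0568, 0.223 and 0.954. The value at 3 h lay close to the threshold and passed it under some other settings, among them DESeq2 (adjusted p = 0.0441). The only called difference was 24 h over 3 h, at -0.32 (SE 0.13, edgeR adjusted p = 0.0444), which ended without any one of the 3 h replicates 1, 2 and 3 (adjusted p = 0.0686, 0.107 and 0.102) or without 24 h replicate 2 or 3 (0.143 and 0.0927). In an F test over all 3 contrasts with 0 h, PAP2, PAP26 and PAP15 passed (edgeR adjusted p = 3.56e-09, 4.95e-06 and 0.00364) and PAP28 did not (0.0872), whereas 89.3% of tested genes passed.

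**Figure D2:**
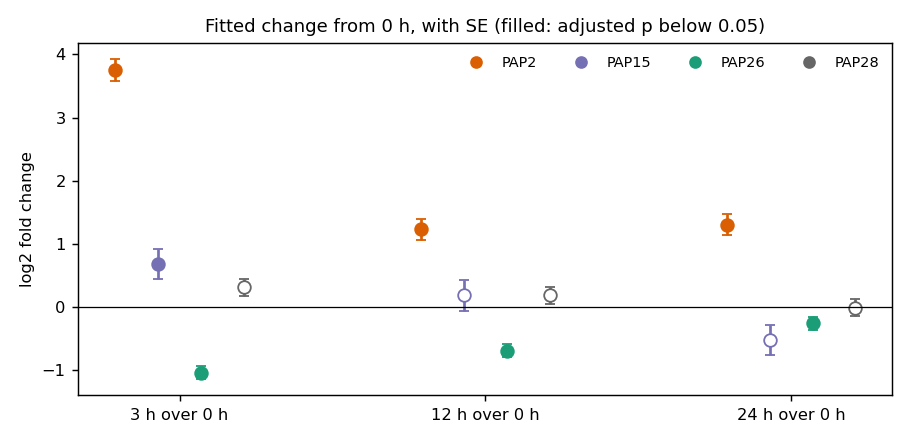
Log2 fold change (y axis) of each gene at 3, 12 and 24 h over 0 h (x axis), from the edgeR fit, with bars of 1 SE; filled points have an adjusted p below 0.05. PAP2 lies at 3.75, 1.23 and 1.31 and PAP26 at -1.03, -0.69 and -0.26, while PAP28 has no filled point. The comparisons share the 0 h libraries.

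The make-up of the 4 transcripts changed within libraries, a measure that does not depend on the scaling between them. PAP2 made up 36.5% ± 2.44 of the summed FPKM of the 4 genes at 3 h, against 2.56% ± 0.273 at 0 h (SD, n = 3 each), and was back to 8.12% ± 0.899 at 12 h and 7.27% ± 2.44 at 24 h. PAP26 held 42.9% ± 1.39 at 3 h, against 82.7% ± 0.703 at 0 h, and 69.4% ± 1.51 at 12 h and 77.3% ± 4.08 at 24 h. The libraries of 3 h and 0 h did not overlap in either share. Set against PAP26 in the same library, PAP2 stood at 80.3% to 95.2% of its level at 3 h and at 2.71% to 3.34% at 0 h. The summed level of the 4 genes was 72.7 ± 4.90 FPKM at 3 h, 55.0 ± 3.97 FPKM at 12 h and 66.0 ± 7.29 FPKM at 24 h, against 77.0 ± 1.88 FPKM at 0 h. In bulk leaf RNA, a change in the number of cells that express a gene and a change in its RNA per cell cannot be told apart.

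**Figure D3:**
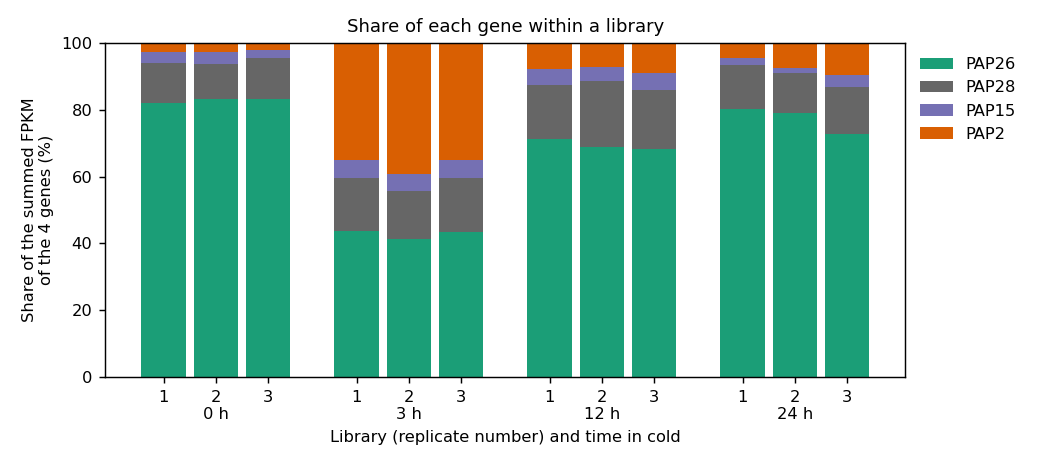
Share of each gene in the summed FPKM of the 4 genes (y axis, %) in each of the 12 libraries (x axis, replicate number under each bar, grouped by hours in the cold). The PAP2 segment makes up 35.0% to 39.3% at 3 h and 2.25% to 2.74% at 0 h, and PAP26 has the largest segment in every library.

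The levels of the 4 genes spanned a wide part of the leaf transcriptome. At 0 h PAP26 stood above 90.4% of tested genes, PAP28 above 49.4%, PAP15 above 19.3% and PAP2 above 16.4%, by mean FPKM. At 3 h PAP2 stood above 77.9% of tested genes, close to PAP26 at 81.0%. By mean FPKM PAP2 was the lowest of the 4 at 0 h (1.97 ± 0.165 FPKM) and PAP15 the lowest at each later duration.

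Genes most like each member in course were sought among 8853 described genes with at least 5 FPKM at some duration. Likeness was the root mean square difference of log2(FPKM + 1) over 12 libraries after centring each gene. The added 1 FPKM shrinks the changes of weakly expressed genes. On that scale 3 h over 0 h was 3.21 for PAP2 and 0.53 for PAP15, against 3.75 and 0.69 in the edgeR fit. Closest to PAP2 were a heptahelical transmembrane protein 4-like gene (CsaV3_6G044210, difference 0.26), the F-box protein At3g12350 (CsaV3_2G026070, 0.29) and a myb-related protein (CsaV3_3G015040, 0.30), where the spread of PAP2 itself over the libraries was 1.20. The heptahelical gene averaged 83.2 FPKM at 3 h and 10.1 FPKM at 0 h. Closest to PAP26 were the ribosome biogenesis protein NSA2 homolog (CsaV3_6G041100, 0.07), a 60S ribosomal protein L18a-like protein (CsaV3_1G032680, 0.08) and a probable aspartyl aminopeptidase (CsaV3_1G000700, 0.09), with a spread of 0.40 in PAP26. The NSA2 homolog averaged 80.3 FPKM at 3 h and 158 FPKM at 0 h.

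For PAP15 the nearest genes were a chloroplastic thioredoxin-like protein AAED1 (CsaV3_4G024400), a uracil phosphoribosyltransferase (CsaV3_4G025430, which overlaps an opposite-strand gene) and fatty-acid-binding protein 1 (CsaV3_7G028080), each at 0.13 against a spread of 0.37. For PAP28 they were ubiquitin-conjugating enzyme E2 32 (CsaV3_3G015120, 0.11), glucan endo-1,3-beta-glucosidase 1 (CsaV3_1G010680, 0.12) and a glutaredoxin-C4-like gene (CsaV3_1G032060, 0.12). With a spread of only 0.18 in PAP28, those differences are not far below what the gene itself varied.

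Of all 14 purple acid phosphatase genes 13 were tested, and they did not move as a block. At 3 h over 0 h 7 were higher and 2 lower, where 29.4% of all tested genes were called higher and 28.3% lower (57.7% called). The number called higher was 5 to 7 on leaving out single libraries. The median log2 fold change was 0.53, against 0.00 over all tested genes. At 12 h 6 were higher and 2 lower, beside 34.4% and 33.0% of all genes (67.4% called). At 24 h 5 were higher and 3 lower, beside 36.2% and 37.9% of all genes (74.2% called). Of those higher at 24 h, 1 was close to the threshold (CsaV3_6G008450, edgeR adjusted p = 0.0499). The share of the 13 that was called, 69.2%, 61.5% and 61.5%, thus lay near the background at each duration. The median log2 fold change was 0.46 at 12 h, against 0.00 over all tested genes, and -0.01 at 24 h, against -0.03, so that no upward shift of the median was seen at 24 h.

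Among the 13 tested genes of the family the steepest rise at 3 h after that of PAP2 belonged to purple acid phosphatase 17 (CsaV3_5G027770), which in Arabidopsis is induced by phosphate shortage and in ageing leaves. It averaged 12.7 ± 1.19 FPKM at 3 h and 2.77 ± 0.0168 FPKM at 0 h (SD, n = 3 each), higher by 2.20 on the log2 scale (SE 0.16, edgeR adjusted p = 4.69e-07), and at 24 h it was at 2.80 ± 0.592 FPKM, with no called difference from 0 h (edgeR adjusted p = 0.710). Probable purple acid phosphatase 20 (CsaV3_6G040630) peaked later, at 20.1 ± 1.02 FPKM at 12 h against 1.79 ± 0.132 FPKM at 0 h (log2 fold change 3.54, SE 0.19, edgeR adjusted p = 1.11e-08). A probable inactive purple acid phosphatase 29 (CsaV3_6G008460) reached 45.6 ± 1.60 FPKM at 24 h against 9.91 ± 0.789 FPKM at 0 h. Its neighbour on chromosome 6 with the same description (CsaV3_6G008450) was at 1.39 ± 0.741 FPKM at 24 h and 0.717 ± 0.187 FPKM at 0 h; the sources do not say how reads of such a pair were divided.

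Probable inactive purple acid phosphatase 2 (CsaV3_5G025610), which shares its number with PAP2, had another course. It had a log2 difference of -0.11 (SE 0.13, edgeR adjusted p = 0.481) at 3 h over 0 h and rose by 1.76 (SE 0.13) at 12 h and by 1.92 (SE 0.13) at 24 h (edgeR adjusted p = 2.38e-07 and 7.26e-08). Purple acid phosphatase 18 (CsaV3_3G023010) fell with PAP26 at 3 h, by 0.78 (SE 0.10) on the log2 scale, and at 24 h its log2 fold change was still -0.76 (SE 0.10, edgeR adjusted p = 1.97e-05). Purple acid phosphatase 5 (CsaV3_6G046780) rose by 0.51 (SE 0.14) at 3 h and had a log2 fold change of -1.02 (SE 0.14) at 24 h, both against 0 h and both called (edgeR adjusted p = 0.00721 and 3.04e-05).

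Purple acid phosphatase 23 (CsaV3_3G011270) rose by 0.73 (SE 0.25, edgeR adjusted p = 0.0251) at 3 h over 0 h, and at 24 h its log2 difference from 0 h was -0.48 (SE 0.25, edgeR adjusted p = 0.102). Probable inactive purple acid phosphatase 1 (CsaV3_6G033690) was called in none of the comparisons with 0 h, with log2 differences of 0.13, -0.11 and -0.23 at 3, 12 and 24 h. Probable inactive purple acid phosphatase 16 (CsaV3_3G040780) was too low to be tested, with 0.241, 0.315 and 0.328 FPKM at 3 h and 0, 0 and 0.0208 FPKM at 0 h. Over all 14 genes the summed level was 154 ± 7.82 FPKM at 3 h, 167 ± 7.05 FPKM at 12 h and 160 ± 7.42 FPKM at 24 h, against 136 ± 3.79 FPKM at 0 h. The 4 genes described here made up 47.3% ± 0.959 of that sum at 3 h, 33.0% ± 2.13 at 12 h and 41.1% ± 2.86 at 24 h, against 56.8% ± 0.352 at 0 h.

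**Figure D4:**
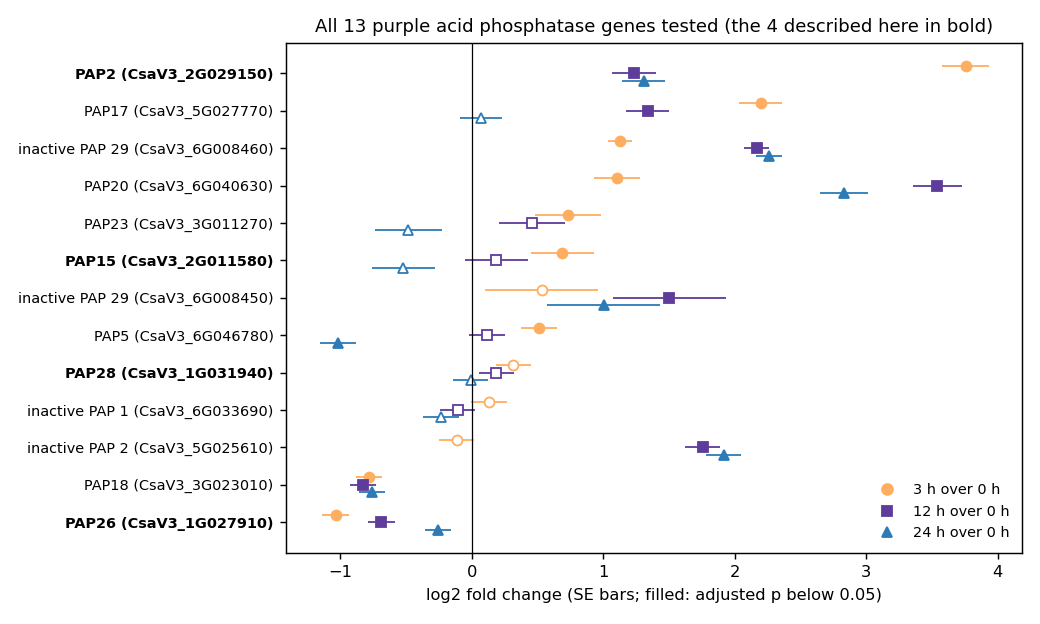
Log2 fold change (x axis, bars of 1 SE) at 3, 12 and 24 h over 0 h for the 13 tested purple acid phosphatase genes (y axis, ordered by the change at 3 h); filled symbols have an adjusted p below 0.05. PAP2 leads at 3 h with 3.75, and PAP26 and purple acid phosphatase 18 are the called falls at 3 h.

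Other genes of phosphate supply and use give the setting of these values. The counts of their members are read against the 57.7%, 67.4% and 74.2% of all tested genes called at 3, 12 and 24 h over 0 h. Of 6 SPX domain genes, whose proteins sense phosphate through inositol pyrophosphates, 4 rose and 1 fell at 3 h over 0 h, 2 rose and 2 fell at 12 h, and 4 rose and 1 fell at 24 h, with median log2 fold changes of 1.43, -0.10 and 1.246. The 4 of 6 called at 12 h are about the background share. SPX domain-containing protein 1 (CsaV3_1G030190) averaged 8.04 ± 1.88 FPKM at 0 h, 379 ± 5.29 FPKM at 3 h, 16.7 FPKM at 12 h and 58.0 ± 28.5 FPKM at 24 h. Another gene of that description (CsaV3_2G002890) averaged 34.9, 489, 25.8 and 150 FPKM at 0, 3, 12 and 24 h. SPX domain-containing protein 3 (CsaV3_6G009000, overlapping an opposite-strand gene) fell by 1.29 on the log2 scale at 12 h over 0 h (SE 0.21, edgeR adjusted p = 1.53e-04). Of 5 tested PHR1-like regulators 2 rose and 1 fell at 3 h, 2 rose at 12 h, and 3 rose and 2 fell at 24 h, with medians of -0.04, 0.07 and 0.30. The 3 of 5 called at 3 h are near the background share and the 2 of 5 at 12 h below it. The largest called change among them at 3 h was 0.56 (SE 0.11, CsaV3_6G048010, overlapping an opposite-strand gene). At 12 and 24 h a PHR1-LIKE 1 gene (CsaV3_3G039470) rose by 0.95 (SE 0.08) and 1.40 (SE 0.08). The 2 called lower at 24 h have that description too, with log2 fold changes of -0.79 (CsaV3_6G048010) and -1.06 (CsaV3_3G028240).

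Of 9 tested phosphate transporters, which move phosphate into and between cells, 4 rose and 1 fell at 3 h, 5 rose and 4 fell at 12 h, and 5 rose and 2 fell at 24 h, with median log2 fold changes of 0.56, 0.42 and 0.76. Of all tested genes 57.7%, 67.4% and 74.2% were called at these durations, close to the transporters' shares at 3 and 24 h. Inorganic phosphate transporter 1-4 (CsaV3_3G012130, overlapping an opposite-strand gene) averaged 22.8 ± 2.72 FPKM at 3 h and 7.69 ± 2.20 FPKM at 0 h. A PHO1 homolog 3-like gene (CsaV3_5G033010) rose by 4.74 (SE 0.17) at 12 h and 4.84 (SE 0.17) at 24 h on the log2 scale. Another gene of that description (CsaV3_5G025280) rose by 0.91 at 12 h and 4.25 at 24 h. A chloroplastic inorganic phosphate transporter 2-1-like gene (CsaV3_5G031110) had log2 fold changes of -0.70, -1.69 and -2.84 at 3, 12 and 24 h. Of 21 tested phospholipase and lipid remodelling genes, 15 rose and 3 fell at 3 h, 12 rose and 4 fell at 12 h, and 10 rose and 6 fell at 24 h, with medians of 0.56, 0.29 and 0.21. The 16 of 21 called at 24 h are about the background share. A glycerophosphodiester phosphodiesterase GDPD1 gene (CsaV3_3G026730) changed most among them at 3 h and 24 h, with log2 fold changes of 6.09 (SE 0.34) and 5.01 (SE 0.32). Another gene of the same description (CsaV3_4G002900) had 1.38 at 3 h and 0.00 at 24 h (edgeR adjusted p = 0.995 at 24 h). At 12 h phospholipase D p2 (CsaV3_2G006790) changed most in the list, with 2.30 (SE 0.20). Another list joined pyrophosphatases, phosphoenolpyruvate carboxylases and the kinases of that carboxylase, 13 genes in all. Of these, 9 rose and 2 fell at 3 h, and 7 rose and 3 fell at 12 h. At 24 h 9 rose and 3 fell. Their medians were 0.60, 0.57 and 1.88, beside the same background shares. Every kinase gene rose at 3 h, whereas the carboxylase genes were split. Called log2 fold changes of carboxylases at 3 h were 3.85 for CsaV3_4G033150 and -0.39 for CsaV3_7G005670, and 0.39 for CsaV3_5G028880 was not called. Inorganic pyrophosphatase 2-like (CsaV3_7G034880) led at 3 h and 24 h with 5.26 (SE 0.25) and 4.54 (SE 0.24), and a housekeeping isozyme-like phosphoenolpyruvate carboxylase (CsaV3_4G033150) at 12 h with 2.90 (SE 0.11).

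Acid phosphatases outside the purple family were few. Of 3 tested, 2 rose and none fell at 3 h, and 1 rose and 2 fell at both 12 and 24 h, where 57.7%, 67.4% and 74.2% of all tested genes were called at 3, 12 and 24 h. Acid phosphatase 1 (CsaV3_5G004860) averaged 96.4 ± 4.35 FPKM at 3 h and 46.9 ± 1.89 FPKM at 0 h, a rise of 1.04 (SE 0.08). Its log2 fold change was -0.77 at 12 h (edgeR adjusted p = 3.85e-06) and -0.20 at 24 h (SE 0.08, edgeR adjusted p = 0.0376). Another gene of that description (CsaV3_4G027320), at 2.57 FPKM at 0 h, was called lower at 12 and 24 h, with log2 fold changes of -1.70 and -1.62. An acid phosphatase 1-like gene (CsaV3_3G011770) rose by 2.01 (SE 0.19) at 12 h. Neither of the 2 ribonuclease genes listed was high enough to be tested. Of 6 tested genes for nucleotide breakdown, which are 4 apyrases, endonuclease 2 and a nucleotide pyrophosphatase/phosphodiesterase-like gene, 2 rose and 2 fell at 3 h, 1 rose and 1 fell at 12 h, and 2 rose and 3 fell at 24 h, with median log2 fold changes of 0.27, 0.09 and -0.37. Apyrases split phosphate from nucleotides. Probable apyrase 6 (CsaV3_2G010660) had a log2 fold change of -0.91 (SE 0.08) at 3 h, and an apyrase 2-like gene (CsaV3_4G013370) rose by 1.06 (SE 0.08) at 12 h and 1.54 (SE 0.08) at 24 h.

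Phytate is a substrate of the Arabidopsis PAP15 enzyme, and genes of phytate and inositol phosphates were therefore listed. Of 11 tested, 2 rose and 4 fell at 3 h, 3 rose and 5 fell at 12 h, and 4 rose and 4 fell at 24 h, with medians of -0.08, 0.19 and -0.17. These counts are close to the 57.7%, 67.4% and 74.2% of all tested genes called. Inositol-tetrakisphosphate 1-kinase 3 (CsaV3_2G030590), a kinase of inositol phosphates, averaged 29.2 ± 1.80 FPKM at 3 h and 7.61 ± 0.300 FPKM at 0 h, a rise of 1.94 (SE 0.08). An inositol-3-phosphate synthase-like gene (CsaV3_4G004810), of the enzyme that makes the inositol ring, averaged 2595 ± 203 FPKM at 0 h, 703 ± 49.2 FPKM at 12 h and 580.2 ± 127 FPKM at 24 h, with log2 fold changes of -1.83 (SE 0.13) and -2.10 (SE 0.13) at 12 and 24 h over 0 h (edgeR adjusted p = 1.66e-07 and 3.38e-08). Another gene described as inositol-3-phosphate synthase-like (CsaV3_UNG190490) averaged 2817 FPKM at 0 h and 681 FPKM at 24 h. The sources do not say how reads of these genes were divided. An inositol-3-phosphate synthase gene (CsaV3_6G045630) rose by 0.56 at 12 h and had a log2 fold change of -1.12 at 24 h, both called. Median log2 fold changes over all tested genes were 0.00 at 3 and 12 h and -0.03 at 24 h.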

How the data were processed

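Leaf RNA was made into cDNA libraries by standard Illumina protocols, according to the labels. The submitters' processing notes list cutadapt 1.9 and FastQC, and the series' design text names HISAT2 for mapping; the tool that counted reads, the build and the strand setting are not named in the sources. The deposited columns headed count hold whole numbers near multiples of 3.74 units at their low end, and are therefore treated as estimated counts. The FPKM beside them are the authors' too; 0.0001 stands for each of 61048 counts of 0 and was read as 0.

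The genes tested had 1 FPKM or more in 3 or more libraries (16432 of 24317, 99.8% of counts); they were tested with edgeR 4.0.16 in R 4.3.3 (quasi-likelihood, TMM scaling, 1 fit of 12 libraries with a mean per duration, 8 residual degrees of freedom, biological coefficient of variation 17.2%). Tests were two-sided, with Benjamini-Hochberg adjusted p below 0.05 over all tested genes. The edgeR step was also run on simulated counts modelled on the 0 h and 3 h libraries alone. Far fewer genes were changed there than were called here, so that run does not check the fit of 12 libraries. Members, lists and tests were chosen with earlier results of these data known; lists are patterns on gene descriptions, corrected for mismatched descriptions. Named are the members, all other purple acid phosphatases, the called member of each list that changed most at each duration (higher group at 5 FPKM or more), and the 3 genes nearest each member. Some other genes of the lists are given beside these, mainly of the same description or with changes the other way. Alternatives included DESeq2 1.42.0 and limma 3.58.1 on log2(FPKM + 1); plots used matplotlib 3.10.9.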

Additional observations from a re-analysis of the deposited data

Results flagged for a closer look

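PAP15 and PAP28 had fitted changes from 0 h of opposite sign at different durations, and the difference between those durations passed the edgeR test. For PAP15 the change at 24 h minus that at 3 h was -1.21 on the log2 scale (adjusted p = 8.35e-04), and the change at 24 h minus that at 12 h was -0.70 (adjusted p = 0.0285). For PAP28 the change at 24 h minus that at 3 h was -0.32 (edgeR adjusted p = 0.0444), where the change at 24 h itself was -0.01 and its sign turned under other settings. These differences are the comparisons between cold durations given above, and share their libraries.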

How the results depend on the processing

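Each result was recomputed under 3 other scalings, 2 other filters on low values, DESeq2, limma on log2(FPKM + 1), + 0.1 and + 5, fits of the 2 groups compared only, unadjusted p, the replicate number as a block and without each library; counts divided by the 3.74 spacing and voom with library quality weights were added after seeing the data. The changes of PAP2 other than 24 h over 12 h, and those of PAP26 at 3 h and 12 h over 0 h and at 24 h over 12 h and over 3 h, kept direction and call in all of these. PAP15 was not tested with a filter of a mean of 5 FPKM.

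The change of PAP28 at 3 h over 0 h passed the threshold with library totals (log2 fold change 0.33), the 5 FPKM filter (0.33), the 2 groups alone (0.33), DESeq2 (0.32), unadjusted p (0.32), quality weights (0.31), and limma with + 1 (0.29) and + 5 (0.21). At 24 h over 0 h PAP28 turned sign with median-of-ratios scaling (0.025), DESeq2 (0.025) and the 2 groups alone (0.015). At 24 h over 3 h its call was lost with median-of-ratios scaling (-0.30) and DESeq2 (-0.30), and at 24 h over 12 h it was gained with quality weights (-0.33). PAP15 at 24 h over 0 h passed with upper quartile scaling (-0.63), quality weights (-0.98) and limma with + 1 (-0.39), + 0.1 (-0.59) and + 5 (-0.16). The quality weights of 24 h replicates 1, 2 and 3 were 0.23, 2.92 and 0.28, so that 24 h values under them rest mainly on replicate 2. That library had the lowest PAP15 (1.05 FPKM) and PAP28 (7.80 FPKM) of the 24 h libraries. PAP15 at 12 h over 3 h passed with the 2 groups alone (-0.50), quality weights (-0.49) and limma with + 1 (-0.42) and + 5 (-0.21), and its call at 24 h over 12 h was lost with the 2 groups alone (-0.68). The call of PAP26 at 24 h over 0 h was lost with median-of-ratios scaling (-0.22), DESeq2 (-0.22) and the 2 groups alone (-0.23). The cause was not tested. With upper quartile scaling the median log2 fold change of all genes was -0.14 at 24 h over 0 h, against -0.03 with TMM scaling. It was -0.11 at 24 h over 12 h, against -0.04, and -0.13 at 24 h over 3 h, against -0.02.

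Leaving out each library in turn gave log2 fold changes of 0.53 to 0.80 for PAP15 at 3 h over 0 h, -0.86 to -0.30 at 24 h over 0 h and -1.04 to -0.49 at 24 h over 12 h. The ranges were -0.37 to -0.14 for PAP26 at 24 h over 0 h, 0.29 to 0.38 at 12 h over 3 h, -0.10 to 0.057 for PAP28 at 24 h over 0 h, -0.42 to -0.26 at 24 h over 3 h, and -0.075 to 0.25 for PAP2 at 24 h over 12 h. Numbers of called genes stayed within 1.5 times in every comparison. Of the 13 purple acid phosphatases, 5 were lower at 24 h over 0 h with upper quartile scaling and with quality weights; among those kept by the 5 FPKM filter, 3 were lower at 24 h over 12 h and 4 at 24 h over 3 h.

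The replicate numbers are shared between durations, but libraries of the same number did not deviate together (correlations -0.0720 to 0.0931 over 18 pairs, 0 above 0.1), so that they are not read as pairs. With the replicate block the change of PAP28 at 24 h over 3 h was -0.32 (edgeR adjusted p = 0.0700), past the threshold no longer, and no other call of the 4 genes changed. The fewest fragments of the 4 genes, about 48.4 in a library, lay behind PAP15.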
